A study of Mus musculus with 10 samples.

Results

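The integrated stress response and the mitochondrial unfolded protein response were followed here through 10 genes of the mouse cochlea: Atf4, Atf5, Ddit3, Trib3, Asns, Chac1, Hspd1, Hspe1, Lonp1 and Clpp. The genes were listed by name, with no threshold on their values, by a choice made with earlier results of these data known. They are 10 of the 54532 genes counted, and all 10 passed the filter on low counts. Ddit3 has a second identifier that held 0 reads in every mouse, so 11 identifiers carry a member's name, and the one with reads was used.

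RNA-seq read counts were analysed from whole cochlea of mtKeima mice at 12 months of age, in 5 mice given nicotinamide riboside (NR), a precursor of NAD+, and 5 Vehicle mice given regular water. NR was supplied in the drinking water at 7 mg/ml (24 mM) for 10 months, from 2 months of age. All mice of both groups carried the mtKeima transgene, a mitochondrial reporter of mitophagy, on a mixed genetic background, and the study's genotyping found them wild type for Cdh23 and Nnt. The labels give the sex as female and the study's methods describe males. The Y-linked gene Ddx3y was at 64.5 to 85.0 CPM (read counts scaled to the size of each library) in all 10 libraries, and Xist did not exceed 0.405 CPM. The cochlea holds many cell types, and in bulk tissue fewer cells of a type cannot be told apart from less RNA per cell. Total counts were between 17060379 and 24419230 per mouse.

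The integrated stress response begins when kinases such as PERK, GCN2, HRI and PKR phosphorylate the translation initiation factor eIF2. Most translation then slows, while mRNAs with upstream reading frames, among them Atf4, Atf5 and Ddit3, are translated more. ATF4 protein raises the transcription of genes of amino acid supply and glutathione turnover. The mitochondrial branch is classically read from the chaperones and proteases of the mitochondrial matrix. Because ATF4 and ATF5 are controlled largely at translation, their mRNA levels do not measure their protein, and neither eIF2 phosphorylation nor any protein was measured in these files.

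The promoters of the members, taken from RefSeq on GRCm38.p6 and spanning 250 bases before to 50 bases after each start site, were searched on both strands for 3 sequences. The C/EBP-ATF response element core TGATGNAA, the letters bound by ATF4 with C/EBP partners, was present in the promoters of Asns, Chac1 and Trib3, and in 3.97% of all 32851 mouse promoters searched. The heat shock element core GAANNTTC was present in Asns, Hspd1 and Hspe1, and in 7.86% of all promoters, and in Asns it overlapped the ATF element. The cyclic AMP response element TGACGTCA was in no member's promoter and in 1.79% of all. All 10 members were matched, with 12 promoters. Below are the stretches holding the ATF element in Chac1, Asns and Trib3, and the heat shock element shared by the Hspd1 and Hspe1 pair. They are printed 5′ to 3′ on the gene's own strand, with the match in capitals:
Chac1: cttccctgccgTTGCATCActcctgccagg
Asns: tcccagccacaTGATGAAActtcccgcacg
Trib3: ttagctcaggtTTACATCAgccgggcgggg
Hspe1: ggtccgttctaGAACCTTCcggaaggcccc

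The Chac1 stretch is chr2:119351038-119351067 on the plus strand, and its match, on the reverse strand, begins 193 bases before the RefSeq start site. The Asns stretch is chr6:7693214-7693243 on the minus strand, 23 bases before the RefSeq start site, where the longer GENCODE M21 model has an untranslated exon. In Trib3 (chr2:152344028-152344057, minus strand) the match, also on the reverse strand, begins 14 bases after the RefSeq start site and lies upstream of the GENCODE gene. The Hspe1 stretch is chr1:55088053-55088082 on the plus strand, 84 bases before the start site of Hspe1, and the same bases lie in an untranslated exon of a GENCODE model of Hspd1. A match of letters is a description and not a measured binding site.

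No member passed an adjusted p of 0.05 (edgeR quasi-likelihood test, Benjamini-Hochberg over 18329 genes), and 0 of all genes tested did, which is 0% of them. DESeq2 called 102 genes in the whole table and 0 of the members. At the unadjusted p of 0.05 that the study used, 1 member, Atf5, was higher and 1 member, Ddit3, was lower in NR mice. Over all tested genes, 9.71% passed that threshold, 4.83% higher and 4.88% lower, which among 10 genes is about 1 gene, beside the 2 members called. With upper-quartile scaling, 1116 genes passed as higher and 664 as lower, in place of 886 and 894. The median log2 fold change of the members was 0.03, beside -0.01 over all genes. In no member were all NR mice on one side of all Vehicle mice, against 1.65% of all genes tested.

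**Figure D1:**
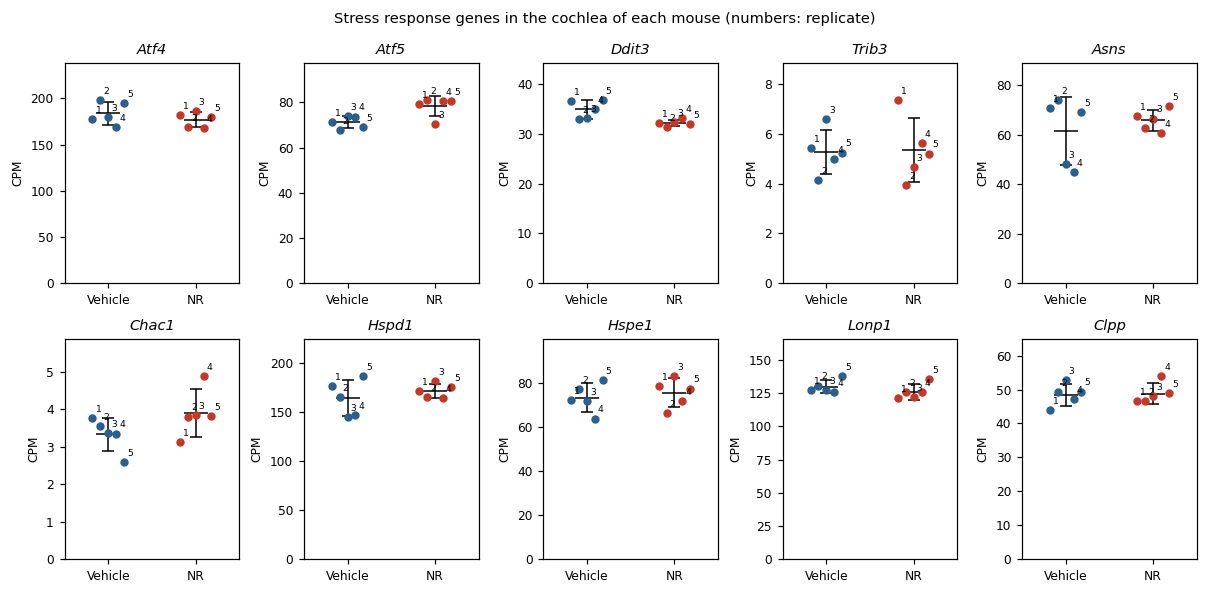
Library-scaled read counts (CPM, vertical axes from 0) of each of the 10 genes in 5 Vehicle mice (blue) and 5 NR mice (red). Points are mice with their replicate number, bars are the mean ± SD. Atf5 was above all Vehicle mice in 4 of 5 NR mice, Ddit3 below all of them in 4 of 5, and Asns was low in Vehicle mice 3 and 4.

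**Figure D2:**
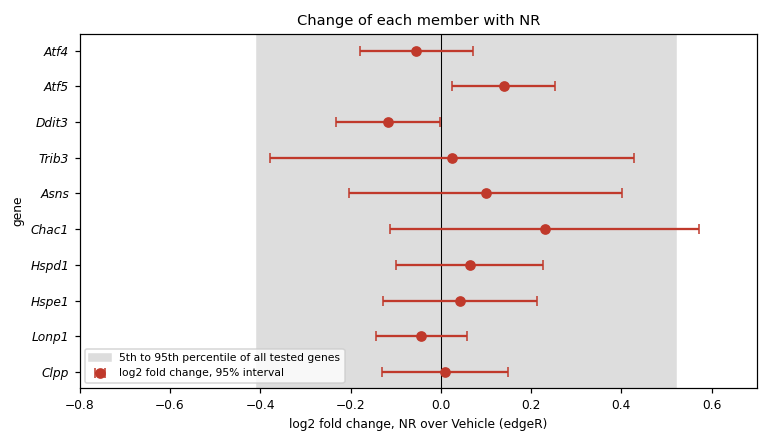
Log2 fold change of NR over Vehicle for each gene with its 95% interval (horizontal axis, edgeR). The gray band is the range from the 5th to the 95th percentile of log2 fold change over all tested genes, from -0.41 to 0.52. All 10 estimates lie between -0.12 and 0.23, and the intervals of Atf5 and Ddit3 do not reach 0.

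Atf4 (ENSMUSG00000042406, chr15:80255184-80257541, plus strand) encodes the central transcription factor of the response. Its level was 182, 169, 187, 168 and 179.5 CPM in NR mice 1 to 5 and 178, 199, 179.7, 169 and 195 CPM in Vehicle mice 1 to 5. The groups overlapped, with the lowest and the highest values only 1.18-fold apart over all 10 mice. The means were 177 ± 8.23 and 184 ± 12.6 CPM (SD, n = 5 each), a log2 fold change of -0.05 with SE 0.06 and adjusted p = 0.764 (edgeR). The 95% interval ran from 0.883- to 1.05-fold, and did not include larger increases of Atf4 mRNA.

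Atf5 (ENSMUSG00000038539, chr7:44812256-44816658, minus strand), a related factor linked to the mitochondrial branch, was the member with the lowest p. NR mice 1 to 5 had 79.4, 81.2, 70.4, 80.6 and 80.5 CPM, and Vehicle mice 1 to 5 had 71.4, 67.9, 74.0, 73.7 and 68.9 CPM. All NR mice but mouse 3 were above every Vehicle mouse. Atf5 was 1.10-fold higher in NR mice (95% interval 1.02 to 1.19), a log2 fold change of 0.14 with SE 0.05, unadjusted p = 0.0214 and adjusted p = 0.468 (edgeR). The 2-sided exact permutation test over all labelings of the 10 mice gave p = 0.0317, where the smallest p possible was 0.00794. Without Vehicle mouse 5 the edgeR p was 0.0501. The exons of Atf5 share 82 bases, 4.11% of its exon length, with Nup62 and Il4i1 on the opposite strand, and the counting as described does not state use of strand. Adipocyte markers moved with the group: their sum was 132, 249, 172, 104 and 134 CPM in NR mice 1 to 5. In Vehicle mice 1 to 5 it was 94.1, 89.7, 41.7, 53.7 and 66.7 CPM. Of these markers, 7 of 9 tested (of 10 listed) were higher in NR mice at unadjusted p. The most abundant of them, Fabp4, was at 33.8 to 122 CPM in NR mice and 10.0 to 43.7 CPM in Vehicle mice, and the part of these markers in the Atf5 difference was not tested.

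Ddit3 (ENSMUSG00000025408, chr10:127290774-127296288, plus strand) encodes CHOP, a transcription factor that is induced in prolonged stress and promotes cell death. It was at 32.3, 31.4, 32.4, 33.2 and 32.0 CPM in NR mice 1 to 5 and at 36.6, 33.0, 33.3, 35.1 and 36.9 CPM in Vehicle mice 1 to 5. NR mice lay close together, with a coefficient of variation of 2.12% against 5.27% in Vehicle mice, and 4 of 5 were below all Vehicle mice. These values rested on 552 to 761 reads per NR mouse and 734 to 822 per Vehicle mouse. The part of counting noise in the spreads was not tested. Ddit3 was 0.922-fold (95% interval 0.852 to 0.999), a log2 fold change of -0.12 with SE 0.05, unadjusted p = 0.0486 and adjusted p = 0.512 (edgeR), and exact permutation p = 0.0159. The unadjusted p stayed at 0.05 or less in 5 of 19 alternatives only, and leaving out any mouse other than Vehicle mouse 2 took it above 0.05. An overlap of 68 bases, 3.97% of the exon length of Ddit3, is shared with Mars on the opposite strand.

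Besides Ddit3, whose estimate was below 0, the members downstream of ATF4 include Trib3, Chac1 and Asns. None of these 3 passed the test, and all 3 estimates were above 0 with intervals that include 0. Trib3 (ENSMUSG00000032715, chr2:152337422-152344032, minus strand), a pseudokinase that ATF4 and CHOP induce, was at 7.37, 3.94, 4.67, 5.63 and 5.21 CPM in NR mice and 5.41, 4.13, 6.60, 4.98 and 5.25 CPM in Vehicle mice. The highest and the lowest value of all 10 mice were both in the NR group, mice 1 and 2, so the Vehicle range lay inside the NR range. Its log2 fold change was 0.02 with SE 0.18 and adjusted p = 0.978 (edgeR). With 88 to 163 reads per mouse, the 95% interval was wide, from 0.769- to 1.34-fold.

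Chac1 (ENSMUSG00000027313, chr2:119351229-119354381, plus strand) encodes an enzyme that degrades glutathione and is a sensitive ATF4 target. It was at 3.13, 3.80, 3.85, 4.89 and 3.82 CPM in NR mice 1 to 5 and 3.77, 3.55, 3.36, 3.35 and 2.6 CPM in Vehicle mice 1 to 5. All NR mice but mouse 1 were above all Vehicle mice. The log2 fold change of 0.23, with SE 0.16, was the largest of the members, but it rested on 56 to 112 reads per mouse and did not pass (unadjusted p = 0.167, adjusted p = 0.652, edgeR; 95% interval 0.925- to 1.49-fold).

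Asns (ENSMUSG00000029752, chr6:7675169-7693254, minus strand) encodes asparagine synthetase. NR mice 1 to 5 had 67.5, 62.8, 66.6, 60.8 and 71.5 CPM and Vehicle mice 1 to 5 had 70.7, 74.2, 48.0, 45.1 and 69.3 CPM. Vehicle mice 3 and 4 were the lowest of all 10, and the other 3 Vehicle mice were within or above the NR range. The coefficient of variation was 22.4% in Vehicle mice and 6.33% in NR mice. The log2 fold change was 0.10 with SE 0.14 and adjusted p = 0.820 (edgeR), and it was -0.11 when Vehicle mice 3 and 4 were left out. Those mice stood apart in cell type markers. Their hair cell markers summed to 555 and 599 CPM, against 249 to 395 CPM in the other 8 mice, and their supporting cell and tectorial markers to 2929 and 3103 CPM, against 1329 to 1884 CPM. Their spiral ganglion neuron markers were the lowest of all mice, at 5185 and 4993 CPM, against 5587 to 7581 CPM in the other 8, of which the lowest was Vehicle mouse 1, with Asns at 70.7 CPM. The part of tissue composition in the Asns values was not tested.

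Hspd1 (ENSMUSG00000025980, chr1:55077835-55088243, minus strand) and Hspe1 (ENSMUSG00000073676, chr1:55088132-55091307, plus strand) encode the chaperonin HSP60 and its lid HSP10, and they are transcribed in opposite directions from a common promoter. Hspd1 was at 172, 165, 181, 165 and 176 CPM in NR mice and 177, 166, 145, 147.5 and 187 CPM in Vehicle mice. Hspe1 was at 78.7, 66.4, 83.2, 71.7 and 77.4 CPM in NR mice and 72.2, 77.2, 71.7, 63.8 and 81.5 CPM in Vehicle mice. As with Asns, Vehicle mice 3 and 4 had the lowest Hspd1 of all mice, while Hspe1 was lowest in Vehicle mouse 4 and NR mouse 2. The log2 fold change was 0.06 with SE 0.07 for Hspd1 (adjusted p = 0.785) and 0.04 with SE 0.08 for Hspe1 (adjusted p = 0.869, edgeR). Both became negative, -0.03 and -0.02, without Vehicle mice 3 and 4. The ratio of Hspe1 to Hspd1 per kilobase was 0.786 ± 0.0417 in NR mice and 0.802 ± 0.0605 in Vehicle mice (SD, n = 5 each; 2-sided exact permutation p = 0.603). Their exons share 112 bases on opposite strands, which is 4.24% of the exon length of Hspd1 and 7.6% of that of Hspe1. Named pseudogenes of Hspd1 held 109 reads and those of Hspe1 13 reads over all mice, against 36475 and 16165 reads for the genes.

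The matrix proteases varied little. Lonp1 (ENSMUSG00000041168, chr17:56614297-56626887, minus strand), which degrades damaged matrix proteins, was at 121, 125.8, 122, 126.1 and 136 CPM in NR mice and 127, 131, 127, 126.2 and 138 CPM in Vehicle mice. It had the lowest coefficient of variation of the members, 4.29%. The median was 13.98% over tested genes of all levels and 24.96% over those at 1 to 10 CPM. No comparison was made with genes at the level of Lonp1. In 4 of 5 NR mice it was below all Vehicle mice, by as little as the gap between 126.1 and 126.2 CPM, and the difference was small, with a log2 fold change of -0.04, SE 0.05 and adjusted p = 0.767 (edgeR). Clpp (ENSMUSG00000002660, chr17:56990305-56996188, plus strand), the catalytic subunit of the other main matrix protease, was at 46.6, 46.5, 48.1, 54.1 and 48.9 CPM in NR mice and 43.9, 49.4, 52.7, 47.3 and 49.4 CPM in Vehicle mice. The groups overlapped, and the log2 fold change was 0.01 with SE 0.06 and adjusted p = 0.974 (edgeR; 95% interval 0.913- to 1.11-fold).

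Levels of the members were compared with each other per kilobase of transcript, as FPKM over all 10 mice. Atf4 was the most abundant at 76.6 ± 4.52 FPKM (SD, n = 10), followed by Hspd1 at 63.6 ± 5.18, Hspe1 at 50.5 ± 4.29, Clpp at 39.8 ± 2.45, Atf5 at 37.5 ± 2.601, Lonp1 at 29.3 ± 1.26, Asns at 23.3 ± 3.61 and Ddit3 at 19.6 ± 1.13 FPKM. Trib3 and Chac1 were far lower, at 2.50 ± 0.492 and 2.21 ± 0.364 FPKM. The ranges over mice did not overlap between Atf4 and Hspd1, Atf5 and Lonp1, Lonp1 and Asns, or Ddit3 and Trib3. Clpp and Atf5 were not separated, with Clpp higher in 7 of 10 mice, nor were Trib3 and Chac1, with Trib3 higher in 6 of 10.

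Pairs of members were compared over the 10 mice on log2 CPM, and 0 of 45 pairs passed an adjusted p of 0.05 (permutation test with 100000 resamples). The median r over pairs was 0.02. Asns and Hspd1 had the highest Pearson r, 0.863 (permutation p = 0.00491, adjusted p = 0.156), with Spearman rho 0.661 (permutation p = 0.0447, adjusted p = 0.503). It fell to 0.349 when the 2 mice farthest from the median of Asns were left out, so it rested on those mice. Atf4 and Hspe1 had r = 0.788 (permutation p = 0.00692, adjusted p = 0.156), rho 0.782 (permutation p = 0.0106, adjusted p = 0.239), and r = 0.871 without the 2 mice farthest on Atf4. Hspd1 and Hspe1, which share a promoter, had r = 0.731 (permutation p = 0.0160, adjusted p = 0.241) and rho 0.818 (permutation p = 0.00574, adjusted p = 0.239), and r = 0.692 without the 2 mice farthest on Hspd1. Atf4 and Atf5 ran in opposite directions, with r = -0.722 (permutation p = 0.0219, adjusted p = 0.246) and rho -0.733 (permutation p = 0.0199, adjusted p = 0.299), and r = -0.42 without the 2 mice farthest on Atf4. With the group means subtracted and mice permuted within groups, Atf4 with Hspe1 was the 1 pair to reach the threshold (r = 0.914, exact permutation p = 0.00111). Its adjusted p was 0.05, equal to the threshold and not below it.

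**Figure D3:**
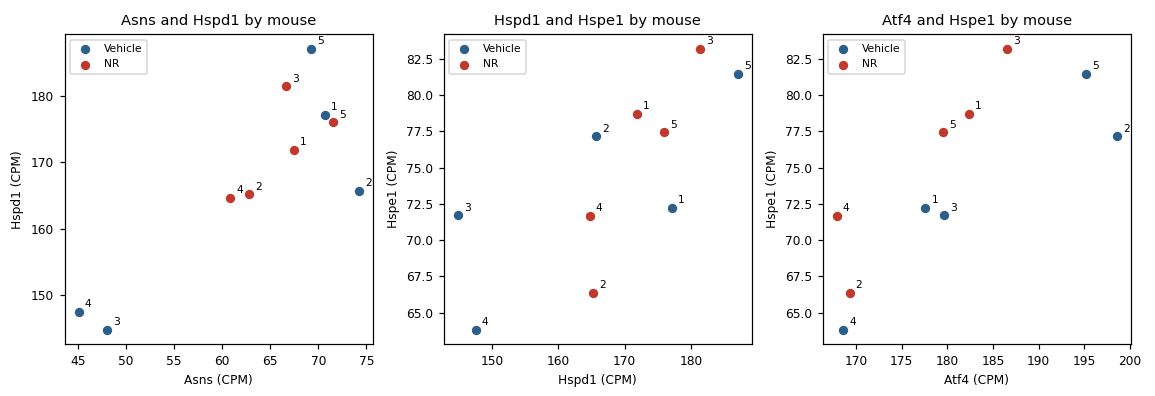
CPM of 3 pairs of genes in each mouse, with the first gene on the horizontal and the second on the vertical axis; blue points are Vehicle mice and red points NR mice, with replicate numbers. In the left panel, Vehicle mice 3 and 4 stand apart at Asns of 48.0 and 45.1 CPM, and the axes do not start at 0.

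The genes whose levels followed 5 of the members most closely over the 10 mice were taken from all tested genes. Asns was followed by Syn1, the synaptic vesicle protein synapsin 1 (Pearson r = 0.959 on log2 CPM), Gm42568 (0.958) and Nap1l1 (0.955). Hspd1 was followed by Rab11b (0.975), a recycling GTPase, Rangap1 (0.954) and Cdc7 (0.944), and Hspe1 ranked 785 among all tested genes. Lonp1 was followed by Nat10 (0.974), an RNA acetyltransferase, M1ap (0.920) and Xpo5 (0.910). Atf4 was followed by Gm48210 (0.927), Fam169b (0.915) and Gm11131 (0.899), each under 1 CPM on average, and Hspe1 ranked 39. Chac1 was followed by Gm47139 (0.912), Ppcdc (0.899) and 2310002F09Rik (0.889). These are the highest of 18329 values over mice that share libraries and tissue composition, and they are descriptions only.

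The other genes of the pathways were read from 8 lists of 154 genes, all tested. Of these, 6 were higher and 10 lower in NR mice at unadjusted p of 0.05, which is 10.4% beside the 9.71% of all genes, and the median log2 fold change was -0.01. None passed an adjusted p of 0.05. A list of 18 genes held the eIF2 kinases, phosphatases, eIF2 and eIF2B subunits, and Dele1, Oma1, Gcn1l1 and Impact. Of the 18, 0 were higher and 3 were lower. Eif2ak3, which encodes PERK, was at 39.9 to 43.1 CPM in NR and 43.0 to 51.3 CPM in Vehicle mice (log2 fold change -0.15, SE 0.06). Eif2ak4, which encodes GCN2, was at 29.2 to 33.3 and 32.2 to 37.5 CPM (-0.16, SE 0.07). Eif2ak1, which encodes HRI, was at 62.4 to 81.4 and 68.2 to 111 CPM (-0.27, SE 0.12). The unadjusted p-values of these 3 were 0.0235, 0.0333 and 0.0463 (edgeR), and the groups overlapped for each. The remaining kinase gene of the list, Eif2ak2, which encodes PKR, was at 27.1 to 36.7 CPM in NR mice and 29.2 to 37.5 CPM in Vehicle mice, with a log2 fold change of 0.04 (SE 0.10, unadjusted p = 0.696, edgeR), and it is named beside the others after its values were seen. Eif2ak1 and the summed erythroid markers were both highest of all mice in Vehicle mouse 1 (111 and 17850 CPM) and lowest of the Vehicle mice in mouse 4 (68.2 and 4110 CPM). Within the NR group both were lowest in mouse 1 (62.4 and 7381 CPM) and highest in mouse 5 (81.4 and 13030 CPM), and the part of erythroid cells in the Eif2ak1 difference was not tested. With upper-quartile scaling 0 of the 18 passed, and leaving out 1 mouse left between 0 and 3, with 0 without NR mouse 1, 3 or 4 and 1 without Vehicle mouse 2, 3 or 5.

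Among 17 genes of a list that mixes partners, regulators and targets of ATF4, 1 was higher and 1 lower. Sesn2, a stress-induced inhibitor of mTORC1 signalling, was 14.9 to 16.1 CPM in NR mice and 16.6 to 20.9 CPM in Vehicle mice. Its groups did not overlap, the only such gene among the 154 of the pathway lists, against 1.65% of all genes tested. The log2 fold change of Sesn2 was -0.28 with SE 0.08 (unadjusted p = 0.00463, adjusted p = 0.420, edgeR). Fgf21, a secreted hormone and marker of mitochondrial stress in muscle, was 0.786 to 1.85 CPM in NR mice and 0.243 to 1.07 CPM in Vehicle mice. Its log2 fold change was 1.17 with SE 0.41 (unadjusted p = 0.0169, adjusted p = 0.457, edgeR). This rested on few reads, with means of 1.23 CPM in NR and 0.543 CPM in Vehicle mice, below those of every member. The count higher was 0 without NR mice 3 and 5, where the count higher over all tested genes went from 886 to 460. Skeletal muscle markers summed to 1008 and 842 CPM in those mice, against 23.5 to 104.5 CPM in the other mice. Fgf21 was at 0.867, 1.34, 1.30, 0.786 and 1.85 CPM in NR mice 1 to 5. The part of muscle in the Fgf21 difference was not tested. Without NR mouse 1, 2 genes were lower. Among 24 genes of amino acid synthesis and transport, 1 was higher and 3 lower. The neutral amino acid transporter Slc1a4 was 28.1 to 33.2 CPM in NR mice and 25.5 to 28.5 CPM in Vehicle mice (log2 fold change 0.23, SE 0.06). The cystine transporter Slc7a11 was 54.1 to 69.9 CPM and 63.5 to 93.9 CPM (-0.34, SE 0.11), and the glycine transporter Slc6a9 was 28.2 to 44.5 CPM and 37.2 to 51.8 CPM (-0.35, SE 0.12). Without Vehicle mouse 4, 5 genes of this list were lower.

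Among 20 cytosolic tRNA synthetases, many of which ATF4 induces, 0 passed in either direction. Without Vehicle mouse 5, 2 were higher, and without NR mouse 3, 1 was lower. Log2 fold changes were above 0 for 15 of the 20, beside 47.1% of all tested genes, with a median of 0.03. The count above 0 was 8 of 20 without Vehicle mice 3 and 4. Nars, the most abundant of them, was at 232 ± 15.6 and 218 ± 16.7 CPM in NR and Vehicle mice (SD, n = 5 each). Among 15 other mitochondrial chaperones and import factors 0 passed (1 was lower without Vehicle mouse 4), and Hspa9, the matrix HSP70, was at 278 ± 16.5 and 279 ± 14.4 CPM. Among 15 other mitochondrial proteases 1 was lower: Afg3l1, an inner membrane protease, was 49.6 to 53.0 CPM in NR mice and 50.7 to 61.8 CPM in Vehicle mice (log2 fold change -0.16, SE 0.06, unadjusted p = 0.0184, edgeR). The count lower was 0 without NR mouse 2, 3 or 4 or Vehicle mouse 1, and 2 without NR mouse 5, and 1 gene was higher without Vehicle mouse 2.

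In the list of endoplasmic reticulum protein folding, 1 of 26 genes passed, as lower: Derl1, of the degradation machinery, was 124 to 137 CPM in NR mice and 135 to 146 CPM in Vehicle mice (log2 fold change -0.14, SE 0.04, unadjusted p = 0.00699, edgeR). Log2 fold changes were below 0 for 24 of the 26 genes, beside 52.9% of all tested genes, with a median of -0.08, and 2 to 3 genes passed as lower without NR mouse 1, 2 or 4 or Vehicle mouse 4 or 5. The count below 0 was 16 of 26, with a median of -0.005, without Vehicle mice 3 and 4. Among 19 cytosolic heat shock genes, 4 were higher and 1 lower, beside 4.83% higher and 4.88% lower over all tested genes. Log2 fold changes were above 0 for 14 of the 19, beside 47.1% of all tested genes, with a median of 0.07. Hspa8, the constitutive HSP70, was 981 to 1118 CPM in NR mice and 811 to 998 CPM in Vehicle mice (log2 fold change 0.22, SE 0.07), and Dnaja1, its cochaperone, was 185 to 221 CPM and 176 to 185.5 CPM (0.14, SE 0.05). The small heat shock protein Cryab was 257 to 305 CPM in NR mice and 280.5 to 339.9 CPM in Vehicle mice (-0.18, SE 0.07). The 4 higher genes became 1 without NR mice 3 and 5, and 1 without Vehicle mice 3 and 4. They became 2 without NR mouse 3, NR mouse 5, Vehicle mouse 2 or Vehicle mouse 3 alone. The 1 lower gene became 0 without NR mouse 1 or 5 or Vehicle mouse 4 or 5, and 2 without Vehicle mouse 1 or 2. Over all tested genes, the count higher went from 886 to 460 without NR mice 3 and 5. It went to 767 without Vehicle mice 3 and 4. NR mice 3 and 5 had high skeletal muscle markers, and the part of muscle in the heat shock counts was not tested.

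**Figure D4:**
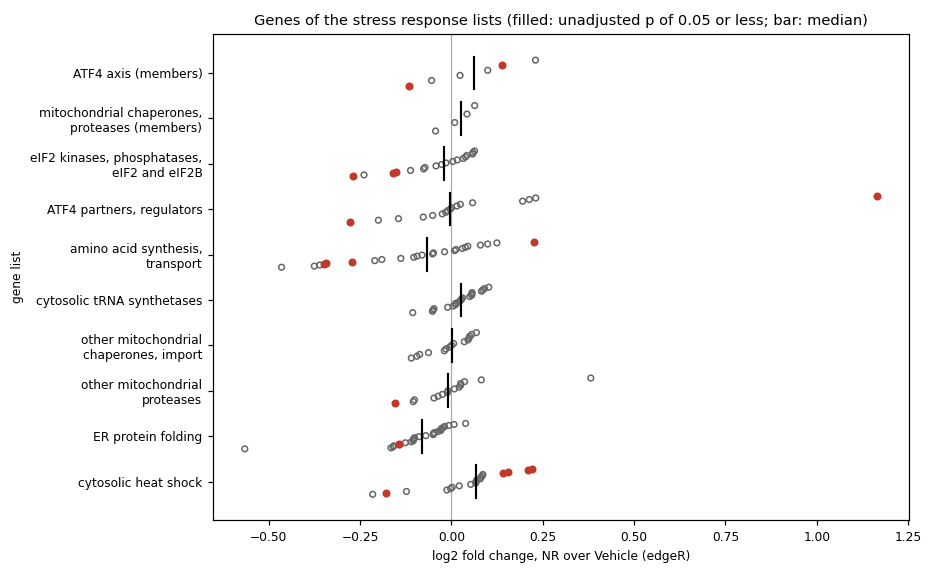
Log2 fold change of NR over Vehicle (horizontal axis, edgeR) for each gene of the member groups and of the 8 pathway lists. Filled points passed an unadjusted p of 0.05 and vertical bars are medians, which lie between -0.08 for endoplasmic reticulum protein folding and 0.07 for cytosolic heat shock.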

How the data were processed

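The authors deposited raw read counts per gene for 1 cochlear library per mouse, with the gene length in bases. Per the labels and the study's methods, reads cleaned with fastp were aligned to mm10 with STAR (version 2.6.1d) and counted with featureCounts (version 1.5.0) in default mode. Counts were scaled by TMM, filtered with filterByExpr and tested with edgeR 4.0.16 (glmQLFit, glmQLFTest) in R 4.3.3, NR against Vehicle with no covariate, and p-values were adjusted by Benjamini-Hochberg over 18329 genes. Alternatives, DESeq2 1.42.0 among them, were tried one at a time. CPM used effective library sizes, log2 CPM a prior count of 2, and FPKM the deposited lengths. Fits were tested on simulated counts. No libraries were duplicates.

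Named genes were all members, in each pathway list up to 3 genes of lowest p at 0.05 or less (otherwise the gene with the highest mean CPM), and for 5 members the 3 genes of highest r. The members and lists were chosen with earlier results of these data known. Marker lists were hair cells, supporting cells, stria and fibrocytes, spiral ganglion neurons, Schwann cells, adipocytes, skeletal muscle, bone, B and plasma cells, neutrophils, erythroid cells, macrophages, immediate early genes and sex genes.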

Additional observations from a re-analysis of the deposited data

Results flagged for a closer look

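Atf5 in NR mouse 3 was 70.4 CPM, far from the other 4 NR mice, which lay between 79.4 and 81.2 CPM. Its gap to the nearest of them was 0.833 of the range of the group, above the Dixon critical value for 5 samples. Of 20 such group tests of the members this was the 1 that passed, and chance gives about 1 in 20. That mouse also had the highest skeletal muscle marker sum, 1008 CPM. NR mouse 5, with the next highest sum, 842 CPM, had Atf5 at 80.5 CPM. The part of muscle in these Atf5 levels was not tested. Without NR mouse 3 the log2 fold change of Atf5 was 0.19 (unadjusted p = 0.00243, adjusted p = 0.751, edgeR).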

How the results depend on the processing

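The count of members at an adjusted p of 0.05 was 0 under each of the 19 alternatives, 2 of which were chosen after seeing the data: leaving out Vehicle mice 3 and 4, or NR mice 3 and 5. The 1 member lower at unadjusted p, Ddit3, became 0 with upper-quartile scaling, with all genes with a read, with the DESeq2 Wald test, with the replicate block and without NR mice 3 and 5, and was 0 to 1 when each mouse was left out. The 1 member higher, Atf5, became 0 with the replicate block, and was 0 to 1 when each mouse was left out, 0 only without Vehicle mouse 5. In the block, mice with the same number did not deviate together (r between -0.22 and 0.17), so the numbers pair nothing by this check, and 2 of 10 mice correlated best with their own number. The median log2 fold change of the members was 0.0044 to 0.0891 when each mouse was left out, and -0.0285 without Vehicle mice 3 and 4. There the values of Asns, Hspd1 and Hspe1 were -0.112, -0.034 and -0.0229, opposite in sign to the fit of all mice, and Hspe1 was -0.0093 without NR mice 3 and 5. When each mouse was left out, Trib3 ran from -0.11 to 0.13, Clpp from -0.0224 to 0.0542 and Hspe1 from -0.0003 to 0.0928, and the other members kept their sign. With the replicate block, the count of higher cytosolic heat shock genes went from 4 to 1. Pairs of members at an adjusted p of 0.05 or less were 0, and 1 with group means subtracted, where the adjusted p equalled 0.05. The cause of these shifts was not tested. Trib3 and Chac1, at 56 to 163 reads per mouse, have the widest intervals of the members, and that of Asns, at 1022 to 1653 reads, is nearly as wide. The parts of depth and of spread between mice in these widths were not tested.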

Other observations

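Cell type markers differed between the libraries. Markers of supporting cells and the tectorial membrane were lower in NR mice for 8 of 9 genes at unadjusted p, with sums of 1329 to 1884 CPM in NR and 1617 to 3103 CPM in Vehicle mice, and 5 of 10 strial and fibrocyte markers were lower. The supporting cell sums of Vehicle mice 3 and 4 were 2929 and 3103 CPM, and the other 3 Vehicle mice, at 1617 to 1657 CPM, lay inside the NR range. Without mice 3 and 4 the counts lower were 0 of 9 and 1 of 10, and 1 supporting cell marker was higher. Hair cell markers were below 0 in log2 fold change for 10 of 10 genes, with 0 at unadjusted p, and for 1 of 9 tested without Vehicle mice 3 and 4. Of the 10 spiral ganglion neuron markers 2 were higher, with sums of 6199 to 7097 CPM in NR and 4993 to 7581 CPM in Vehicle mice, lowest in Vehicle mice 4 and 3, and 1 was higher without those mice. Of 8 Schwann cell markers 1 was lower, and of 9 bone markers 1 was higher, with sums of 516 to 1992 CPM in NR and 325 to 837 CPM in Vehicle mice. Skeletal muscle markers were higher for 7 of 9 tested genes, in a group where NR mice 3 and 5 held most of the signal. Of 9 neutrophil markers 1 was higher, of 4 tested sex genes 1 was lower, and 0 passed among B and plasma cell, erythroid, macrophage and immediate early genes.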
